A study of Mus musculus with 6 samples.

Results

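Cirbp, Rbm3 and 8 genes of the circadian clock (Per1, Per2, Cry1, Nr1d1, Nr1d2, Dbp, Tef and Bhlhe40) were described in mouse T cell acute lymphoblastic leukemia (T-ALL) cells. All probes that the platform annotation assigns to these symbols were taken, which gave 17 probes for 10 genes, out of 45281 probes and 19057 named genes on the array. The genes were chosen by earlier results of the same comparison (the signal differences between the groups on these arrays), so differences of the members between the groups are given as a description and were not tested. The leukemia was induced by NOTCH1, and GFP+CD4+CD8+ cells were sorted from the bone marrow of male mice 4 weeks after transplantation. One group of 3 arrays was labelled wild type (the control) and the other group of 3 arrays knockout (Klf4-deficient), with NOTCH1 and GFP common to both. The sources used here do not give how Klf4 was deleted, whether animals were pooled or the hour at which cells were collected. Nor do they say that samples of a group came from separate animals, so the errors and p-values cover a spread between samples that may be technical only.

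Cirbp and Rbm3 encode small RNA-binding proteins with an RNA recognition motif and a glycine-rich tail, best known because mild cooling raises their transcripts. In the clock, the activators CLOCK and BMAL1 (from Arntl) bind E-boxes in the DNA and switch on Per and Cry genes, whose proteins then shut the activators down. A second loop runs through Nr1d1 and Nr1d2, which encode the Rev-Erb repressors, while DBP and TEF drive further rhythmic genes through D-boxes. Bhlhe40 encodes a repressor that competes for E-boxes and is also induced by T cell receptor signals. Levels of most of these clock transcripts move over the day in many tissues.

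Promoter sequences were available for 7 of the 10 members, with 10 transcript starts in all, from RefSeq on GRCm38.p6. Rbm3, Per2 and Bhlhe40 had no entry. The 250 bases before the start are printed for Cirbp, the member with the largest difference among those above background on all 6 arrays, and for 3 clock members with an E-box. Capitals mark the motifs found. They are the E-box CACGTG in Per1, Cry1 and Tef, the half-site AGGTCA of Rev-Erb and ROR factors (as its reverse complement TGACCT) in Per1, and the octamer TCCCCGCC, described as a mild cold element, in Cirbp. The Cirbp window is chr10:80167589-80167838, plus strand, that of Per1 is chr11:69098699-69098948, plus strand, that of Cry1 is chr10:85185055-85185304, minus strand, and that of Tef is chr15:81802423-81802672, plus strand.
Cirbp: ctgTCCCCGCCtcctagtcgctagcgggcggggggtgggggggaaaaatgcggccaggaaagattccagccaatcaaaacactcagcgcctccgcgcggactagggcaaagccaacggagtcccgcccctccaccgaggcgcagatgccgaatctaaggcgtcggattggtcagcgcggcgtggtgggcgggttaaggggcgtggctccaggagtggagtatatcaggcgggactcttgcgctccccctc
Per1: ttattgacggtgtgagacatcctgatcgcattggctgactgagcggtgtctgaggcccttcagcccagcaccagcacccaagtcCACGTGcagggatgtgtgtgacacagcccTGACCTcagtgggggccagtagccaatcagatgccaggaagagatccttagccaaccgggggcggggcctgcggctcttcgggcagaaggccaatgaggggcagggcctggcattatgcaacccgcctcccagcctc
Cry1: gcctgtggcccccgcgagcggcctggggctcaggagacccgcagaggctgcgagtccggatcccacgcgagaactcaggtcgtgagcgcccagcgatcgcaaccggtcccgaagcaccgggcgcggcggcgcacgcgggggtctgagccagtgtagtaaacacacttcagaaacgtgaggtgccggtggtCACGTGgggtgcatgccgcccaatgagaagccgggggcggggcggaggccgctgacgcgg
Tef: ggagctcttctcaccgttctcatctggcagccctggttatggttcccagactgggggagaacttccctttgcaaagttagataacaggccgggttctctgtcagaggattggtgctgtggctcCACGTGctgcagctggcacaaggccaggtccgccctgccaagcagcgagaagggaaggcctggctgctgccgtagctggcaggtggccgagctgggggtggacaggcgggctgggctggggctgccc

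The E-box was present in 4 of the 10 member windows (1 of Per1, that of Cry1 and both of Tef) and in 6.02% of the 32851 promoter windows of the same length in the table. In the Cry1 window it began 60 bases before the start, and in the Per1 window 166 bases before it. The half-site AGGTCA, searched like every motif on both strands, stood in 2 member windows (Per1 and Nr1d2) and in 14.0% of all windows. TCCCCGCC stood in 1 member window, 247 to 240 bases before the upstream start of Cirbp, and in 4.64% of all windows. The D-box forms TTATGTAA and TTACGTAA, the cAMP response element TGACGTCA and the heat shock pair GAANNTTC were in 0 member windows, against 0.819%, 0.113%, 1.55% and 6.69% of all windows. These matches describe the letters in the windows and were not linked to the signals.

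The arrays gave probe intensity on a linear scale, with mean signals of 417 to 445 in the controls and 359 to 432 in the arrays labelled Klf4-deficient. A probe was taken as above background when its signal exceeded 3 SDs of the background noise (21.8 to 23.7, depending on the array), as 37.9% to 38.5% of the probes of an array did. Arrays correlated at 0.983 to 0.993 across probes, and array 3 of the group labelled Klf4-deficient lay apart on the first principal component, which held 35.8% of the variance. The Klf4 probe in use read 44, 18.4 and 24.6 in the controls and 80.6, 46 and 85.4 in the arrays labelled Klf4-deficient, which goes against the label. It was dim, above background on 2 of 3 control arrays (close to the limit at 24.6) and on 3 of 3 of the others. The 2 other Klf4 probes were under the limit on all 6 arrays. Where the probes lie relative to the deleted part is unknown, so the measurement may check nothing. Of the markers for the double-positive label, Cd8b1 had mean signals of 29003 and 26203 in the control and the other group. Cd4 (1296 and 1222) and Rag1 (3190 and 2644) were also above background on all 6 arrays. All 13 measured markers of double-positive T cells were above background on at least 1 array. The Cd8a probe was dim, above background on 3 control arrays and on 1 of the others. Markers of other cell types were bright in both groups too, such as erythroid Hba-a1 (33519 and 38385) and neutrophil S100a8 (27431 and 24368). The purity of the sorted cells was not tested.

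Cirbp was the member whose groups stood apart at its brightest probe, with lower signal in the arrays labelled Klf4-deficient. Its single probe read 1016, 1130 and 1063 in control arrays 1, 2 and 3. It read 545, 789 and 484 in arrays 1, 2 and 3 labelled Klf4-deficient. Every control array lay above every array of the other group, and array 2 lay closest to the controls. The control mean was 1070 ± 57.2 (SD, n = 3) and that of the other group 606 ± 162 (SD, n = 3), so the scatter was wider in the group labelled Klf4-deficient. The coefficient of variation was 5.35% in the controls and 26.6% in the other group. Both are of signal before normalization, where array 3 labelled Klf4-deficient had the lowest mean over all probes, 359. Normalized log2 values were 9.91, 10.18 and 9.99 in the controls and 9.11, 9.60 and 9.18 in the other group. The ratio of the mean signals was 0.567. On the normalized log2 scale the difference, Klf4-deficient minus control, was -0.73 ± 0.16 (SE), or 60.4% of the control level. Of the 8361 genes above background on all 6 arrays, 12 (0.144%), Cirbp included, had a difference as low or lower. These are the values by which Cirbp came to be picked, and nothing is read from them about the group as a whole.

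**Figure D1:**
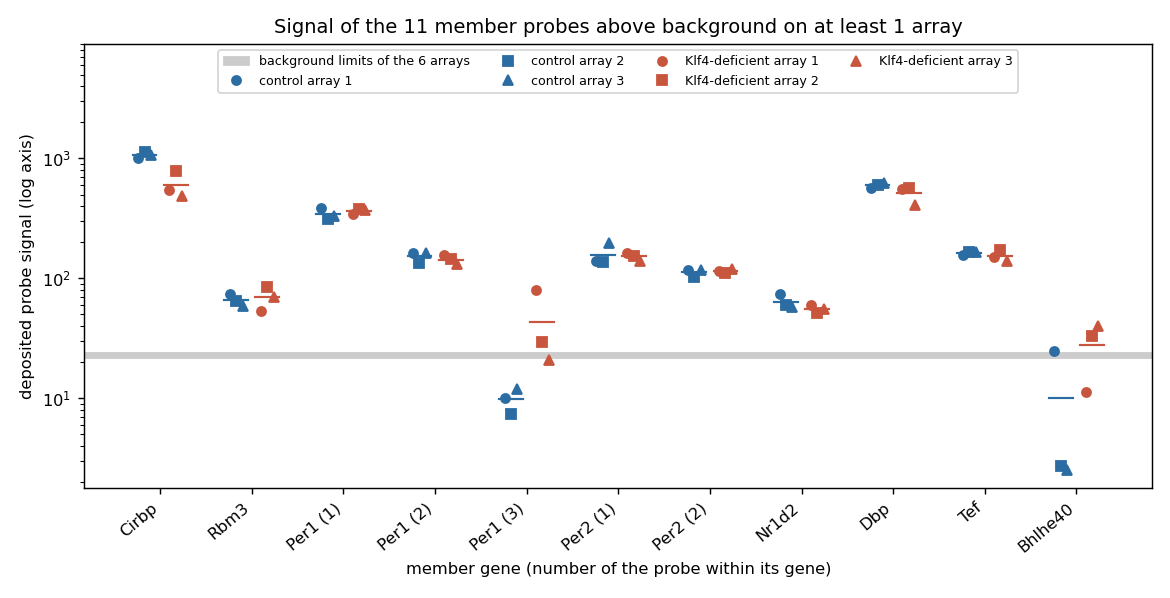
Deposited signal (log axis) of the 11 member probes above background on at least 1 array; each point is an array, blue for control and red for labelled Klf4-deficient, lines are group means, and the grey band holds the background limits of 21.8 to 23.7. The Cirbp points of the groups do not overlap (484 to 789 against 1016 to 1130), while the groups overlap for Rbm3, Dbp, Tef, Nr1d2, Per2 and the brighter Per1 probes; heights of different probes are not comparable.

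Rbm3, which is induced by cold together with Cirbp, did not share that pattern. Its brighter probe read 74.5, 64.7 and 59.3 in the controls and 53.3, 84.8 and 69.8 in the arrays labelled Klf4-deficient. The groups overlapped fully, since both the lowest and the highest array belonged to the group labelled Klf4-deficient. The log2 difference was 0.11 ± 0.16 (SE), with a 95% interval from -0.31 to 0.52. A second Rbm3 probe was under the limit on all 6 arrays, at 3.3 to 15.4. RefSeq places an antisense gene, Rbm3os, over Rbm3, and which strand a probe reads was not known here.

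Per1 and Per2, the period repressors of the core loop, were each read by 2 probes above background on all 6 arrays, and in these the groups overlapped. The brightest Per1 probe read 388, 314 and 334 in the controls and 347, 379 and 371 in the other group, a log2 difference of 0.18 ± 0.10 (SE). The second Per1 probe read 164, 134 and 164 against 155, 144 and 131, and its difference was -0.01 ± 0.06. So the 2 probes of the same RefSeq transcript differed in sign, by amounts within 2 SE of 0. Per2 read 140, 138 and 196 in the controls and 162, 155 and 141 in the other group on its brightest probe, a difference of 0.04 ± 0.13. The second Per2 probe gave 0.10 ± 0.08 and the last was under the limit throughout. Another RefSeq gene, Gm35591, overlaps Per2.

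The remaining Per1 probe, annotated to a cDNA clone rather than to the RefSeq transcript, behaved unlike the other 2. It read 10.1, 7.4 and 12 in the controls, all under the limit, and 80.1, 29.3 and 20.9 in the arrays labelled Klf4-deficient, of which 2 passed the limit. The groups did not overlap, and array 1 was by far the highest. No fold is given, since the control level is only a bound and array 3 of the other group was under the limit as well. On the brighter Per1 probes, array 1 was the lowest of its group in one case (347) and the highest in the other (155).

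Cry1, the cryptochrome repressor, and Nr1d1, the Rev-Erb alpha repressor, were under the limit on all 6 arrays. Cry1 read from -15.4 to -0.2 and Nr1d1 from 4.6 to 13.1, so no fold is read for either. Nr1d2, the Rev-Erb beta repressor, read 74.2, 60.3 and 57.4 in the controls and 59.5, 51.8 and 55.9 in the arrays labelled Klf4-deficient. Its groups overlapped at 57.4 to 59.5, and the log2 difference was -0.09 ± 0.10 (SE). The second Nr1d2 probe was under the limit on all 6 arrays, at -14.9 to 7.6. RefSeq places Thra over part of Nr1d1.

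The D-box activators Dbp and Tef were above background on all 6 arrays, with overlapping groups. Dbp read 568, 598 and 627 in the controls and 559, 572 and 410 in the arrays labelled Klf4-deficient. Arrays 1 and 2 of that group lay close to control array 1, and array 3, whose mean signal was also the lowest at 359, lay well under them. After normalization the difference of Dbp was -0.12 ± 0.09 (SE), and without array 3 it was -0.05. RefSeq places Sphk2 over part of Dbp. Tef read 156, 167 and 165 in the controls and 151, 171 and 139 in the other group. Its difference was -0.004 ± 0.08, with a 95% interval from -0.20 to 0.19. The second Tef probe was under the limit on all 6 arrays, at -9.4 to 0.8.

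Bhlhe40 lay around the background limit. It read 24.8, 2.7 and 2.5 in the controls, where 1 of 3 arrays passed the limit, and 11.2, 33 and 39.8 in the arrays labelled Klf4-deficient, where 2 of 3 passed. The groups overlapped through control array 1 and array 1 labelled Klf4-deficient. The log2 difference was 0.85 ± 0.46 (SE), and it ran from 0.41 with an offset of 50 to 1.97 with an offset of 1, as a dim probe depends on what is added before the log. Another RefSeq gene, 0610040F04Rik, overlaps Bhlhe40.

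Across the 10 members at their brightest probes, 5 differences were above 0, 4 below 0 and 1 (Cry1) was exactly 0 because all its arrays were at the floor. The median log2 difference was 0.02, from -0.73 to 0.85, beside a median of 0 over all 19057 genes. For the 7 members above background on all 6 arrays at that probe (Cirbp, Rbm3, Per1, Per2, Nr1d2, Dbp and Tef), 3 differences were above 0 and 4 below 0, with a median of -0.004. The groups did not overlap with the arrays labelled Klf4-deficient lower for 1 member (Cirbp), where 6.09% of all genes did so, and with them higher for 0 members, where 5.48% did so. Over the 17 probes the counts were 1 lower and 1 higher (the clone-based Per1 probe), against 5.26% and 4.29% of all probes. Since the members were picked with this contrast known, nothing is read from these counts. Leaving out an array changed which other members separated. With 3 arrays against 2, more of all genes separate too. Without control array 1, Dbp was also lower and Per1 and Bhlhe40 higher, beside 10.8% of all genes lower and 8.71% higher. Without control array 3, Nr1d2 was also lower and Per2 higher, beside 9.47% and 8.09% of all genes. Without array 1 labelled Klf4-deficient, Rbm3, Per1 and Bhlhe40 were higher, beside 11.2% of all genes. Cirbp was lower in each of the 6 cases, which its lack of overlap already fixes, with a log2 difference from -0.88 to -0.63.

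**Figure D2:**
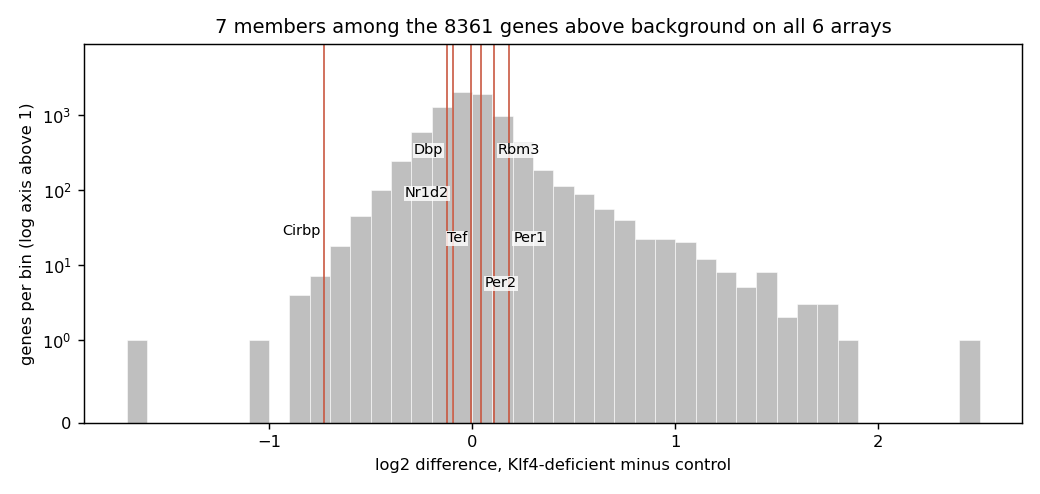
Number of genes (bars, log axis above 1) by log2 difference, Klf4-deficient minus control, for the 8361 genes above background on all 6 arrays, with red lines at the 7 members among them. Cirbp lies at -0.73 in the left tail, and the other 6 lie between -0.12 and 0.18, inside the bulk of genes.

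The genes of the clock outside the members, a list of 26, were tested with limma, with Benjamini-Hochberg adjustment over all 45281 probes. The question was whether the rest of the clock differed between the labelled groups. Of 22 measured genes 0 passed in either direction at an adjusted threshold of 0.05, where 1 of 19057 genes (0.00525%) did. At an unadjusted p under 0.05, 0 were higher and 2 lower, where 3.48% and 4.13% of all genes were. Without overlap, 3 of the 22 were lower (Csnk1e, Hdac3 and Rora) and 0 higher, beside 6.09% and 5.48% of all genes. The median log2 difference of the list was -0.02, with 9 genes above 0, 11 below 0 and 2 at the floor on every array, and 8 of the 22 were under the limit on all 6 arrays.

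Csnk1e, which encodes a casein kinase that marks PER proteins for turnover, had the smallest p of the list. It read 2373, 2391 and 2430 in the controls and 1770, 1900 and 1363 in the arrays labelled Klf4-deficient, with no overlap. Its log2 difference was -0.42 ± 0.06 (SE), which did not pass in limma (adjusted p = 0.402). The related kinase gene Csnk1d gave -0.05 ± 0.05 (limma adjusted p = 0.824), with groups that overlapped at 2257 to 2339. Hdac3, a deacetylase through which Rev-Erb proteins repress, gave -0.14 ± 0.05 (limma adjusted p = 0.794), and Btrc, a ubiquitin ligase subunit acting on PER proteins, -0.14 ± 0.07 (limma adjusted p = 0.824). Rora, an activator that competes with Rev-Erb proteins, was above the limit on 3 of 3 control arrays (24.1 to 27.6) and on 0 of the other 3 (17.8 to 20.5), close to the limit in both. The activators themselves, named for their role, overlapped between groups. Clock read 552, 354 and 500 in the controls and 418, 411 and 350 in the others (log2 difference -0.12 ± 0.14). Arntl read 459, 318 and 425 and then 379, 387 and 356 (0.02 ± 0.11).

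**Figure D3:**
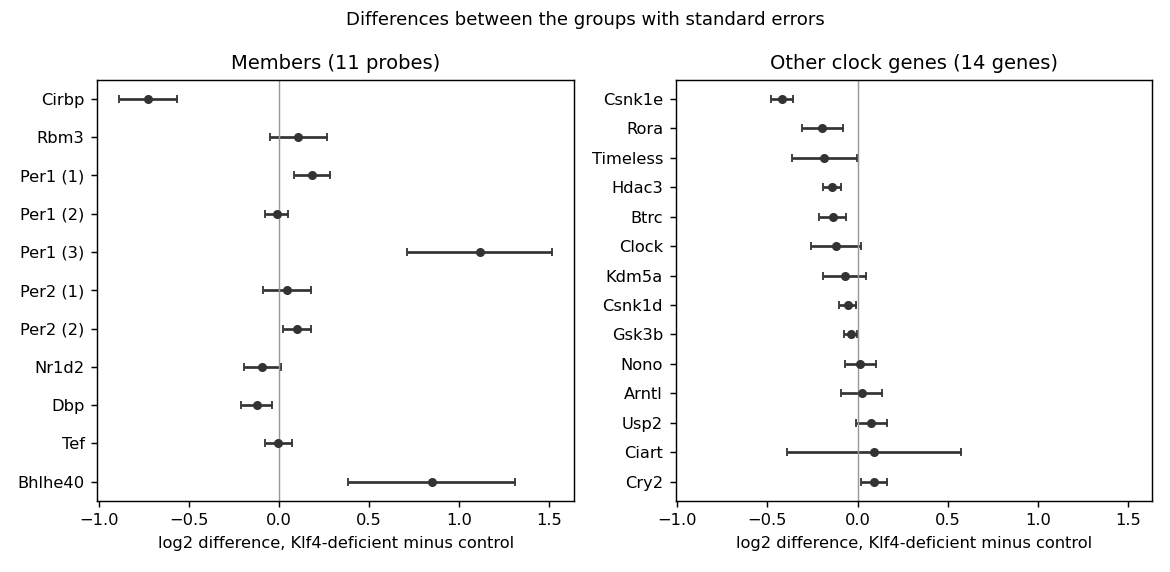
Log2 difference, Klf4-deficient minus control, with bars of 1 standard error, for the 11 member probes (left) and the 14 other clock genes (right) above background on at least 1 array. Cirbp (-0.73) and Csnk1e (-0.42) lie farthest below 0. Per1 (3), Bhlhe40 and Ciart, which are under the background limit on some arrays and above it on others, carry the widest bars. Per1 (3) is drawn but not read as a fold, since its control arrays are all under the limit.

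Clock output genes were mostly dim, with 4 of 6 measured genes under the limit on all 6 arrays. In limma 0 of the 6 passed in either direction, also at an unadjusted p under 0.05. Lonrf3 gave 0.14 ± 0.14 (SE) and Klf9 -0.12 ± 0.43.

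Genes related to Cirbp and Rbm3, with cold-shock domains or a similar RNA recognition motif, gave no call in limma either. Of 9 measured genes, 0 passed over all probes, and at an unadjusted p under 0.05, 1 was higher and 0 lower, beside 3.48% and 4.13% of all genes. That gene was Ybx3, a cold-shock domain protein, which read 59.2, 64.2 and 71.7 in the controls and 90.3, 95.2 and 68.8 in the arrays labelled Klf4-deficient, with overlap before normalization. After normalization its difference was 0.37 ± 0.11 (SE, adjusted p = 0.731 in limma). Ybx1, its abundant relative, gave -0.16 ± 0.10, Rbmx, an RNA-binding protein of the same family as Cirbp, gave -0.11 ± 0.12, and Carhsp1 gave 0.17 ± 0.12.

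Heat shock genes, which respond to temperature in the other direction from Cirbp, had a median log2 difference of 0.20 over 13 measured genes. In limma 0 passed over all probes. At an unadjusted p under 0.05, 4 were higher and 0 lower, beside 3.48% and 4.13% of all genes. These were Hspe1 (0.25 ± 0.05 SE), Hsp90aa1 (0.29 ± 0.08), Dnajb1 (0.19 ± 0.06) and Hspa8 (0.22 ± 0.07). Their adjusted p-values in limma were 0.583, 0.686, 0.749 and 0.763. After normalization the groups stood apart for these 4 of the 13, with the arrays labelled Klf4-deficient higher, beside 5.48% of all genes. With them lower, 0 stood apart, beside 6.09%. Before normalization the groups overlapped for Hspe1, Hsp90aa1 and Dnajb1 and stood apart for Hspa8. Dnajb1 read 4951 in array 3 labelled Klf4-deficient, under every control array (5470 to 5623). The mean signal of that array was also the lowest, at 359. Normalized, Dnajb1 read 12.52 (log2) there, above the controls (12.37 to 12.45). Of the 13 differences, 10 were above 0 and 3 below 0. Whether temperature had a part in these differences was not tested.

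The genes whose profile over the 6 arrays came closest to that of Cirbp were Cfap157, H1f5 and Izumo4. Likeness was the root mean square difference of log2 values after each gene was centred on its own mean, over 8360 genes above background on all 6 arrays, and is a description. Cfap157 differed from Cirbp by 0.119, H1f5, a linker histone, by 0.122, and Izumo4 by 0.133, where the Cirbp profile itself had a spread of 0.403. Cfap157 read 261, 237 and 202 in the controls and 115, 183 and 116 in the arrays labelled Klf4-deficient. Array 2 was the closest to the controls, which the choice by likeness to Cirbp already favours. No other member was near: the closest was Dbp, at 0.337, the 1091st gene in that order. The nearest gene to Dbp was Dazap1 (0.011), to Per1 Ankrd12 (0.023), to Tef Themis (0.016), to Nr1d2 Ciao1 (0.031), to Per2 Rcan1 (0.051) and to Rbm3 A130010J15Rik (0.047). Between members, Dbp and Tef differed least, by 0.094. That is more than the spread of the Tef profile itself (0.079) and close to that of Dbp (0.112). Tef stood 958th in the order from Dbp and Dbp 1132nd in the order from Tef, so no shared profile is read from it.

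The neighbours of Cirbp on chromosome 10 did not share its difference. Among genes above background on all 6 arrays, the 5 nearest on each side in the RefSeq order had a median log2 difference of 0.02, from -0.14 (Dazap1) to 0.16 (Fam174c). The groups failed to overlap for 1 of these 10 with the arrays labelled Klf4-deficient higher and for 0 with them lower, beside 5.48% and 6.09% of all genes. The genes directly beside Cirbp were Midn, at 0.05 ± 0.05 (SE), and Fam174c, at 0.16 ± 0.05. No RefSeq gene overlaps Cirbp.

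Markers of other cell types were read as well. In limma 0 markers of any of these lists passed the adjusted threshold in either direction. At an unadjusted p under 0.05, 2 erythroid, 6 monocyte and macrophage and 4 NK markers were higher and 0 lower. Of the neutrophil and B lineage markers 0 were called at that level, beside 3.48% of all genes higher and 4.13% lower. The 12 measured erythroid markers, as a mean log2 level relative to the controls, lay from -0.44 to 0.24 in the controls and at 0.19, 1.00 and 1.71 in arrays 1, 2 and 3 labelled Klf4-deficient. Their summed signal was 35204 to 42996 and 42991 to 58452, and Epb42 was under the limit on all 6 arrays. The 14 monocyte and macrophage markers lay from -0.05 to 0.06 in the controls and at 0.34, 0.69 and 1.29 in the other arrays, with summed signals of 3822 to 5143 and 4679 to 11523, and 11 of 12 erythroid and 14 of 14 monocyte markers had differences above 0. Cd163 was under the limit on all 6 arrays, and Adgre1, Fcgr1, Cd14 and Marco were under it on all 3 control arrays. In array 1 labelled Klf4-deficient, where Cirbp read 545, the erythroid (0.19), neutrophil (-0.21) and B lineage (-0.04) levels were inside the control ranges. The erythroid level was near the top of its range (0.24), and the monocyte (0.34) and NK (0.26) levels were above theirs. In arrays 2 and 3, where Cirbp read 789 and 484, the erythroid, monocyte and NK levels were all above the controls.

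Neutrophil markers (12 measured) had summed signals of 74576 to 103854 in the controls and 75793 to 143230 in the others, with Mmp8 under the limit throughout. On the log2 scale the neutrophil level lay from -0.26 to 0.30 in the controls. It was -0.21, -0.04 and 1.16 in arrays 1, 2 and 3 labelled Klf4-deficient, so only array 3 lay above the controls. NK markers (9 measured) summed to 2139 to 3125 and 2657 to 3539, with Ncr1, Gzmb and Klrk1 under the limit on all 6 arrays. Their mean log2 level lay from -0.11 to 0.10 in the controls and at 0.26, 0.62 and 0.72 in arrays 1, 2 and 3 labelled Klf4-deficient, above every control. B lineage markers (8 measured) summed to 704 to 942 and 596 to 872, with Pax5 under the limit on all 6 arrays. On the log2 scale the B lineage level lay from -0.22 to 0.15 in the controls. It was -0.04, 0.13 and 0.20 in arrays 1, 2 and 3 labelled Klf4-deficient, so only array 3 lay above the controls. Double-positive T cell markers summed to 124963 to 135266 in the controls and 109374 to 127230 in the others, and the median log2 difference of these 13 genes was -0.09. The sums are of signal before normalization, and the lowest was of array 3, whose mean signal was also the lowest, at 359. Their mean log2 level lay from -0.05 to 0.05 in the controls. It was -0.10, -0.04 and -0.09 in arrays 1, 2 and 3 labelled Klf4-deficient. The part of these markers in the difference of Cirbp was not tested, beyond the array values given. In bulk samples, fewer cells of a type and less RNA per cell cannot be told apart.

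**Figure D4:**
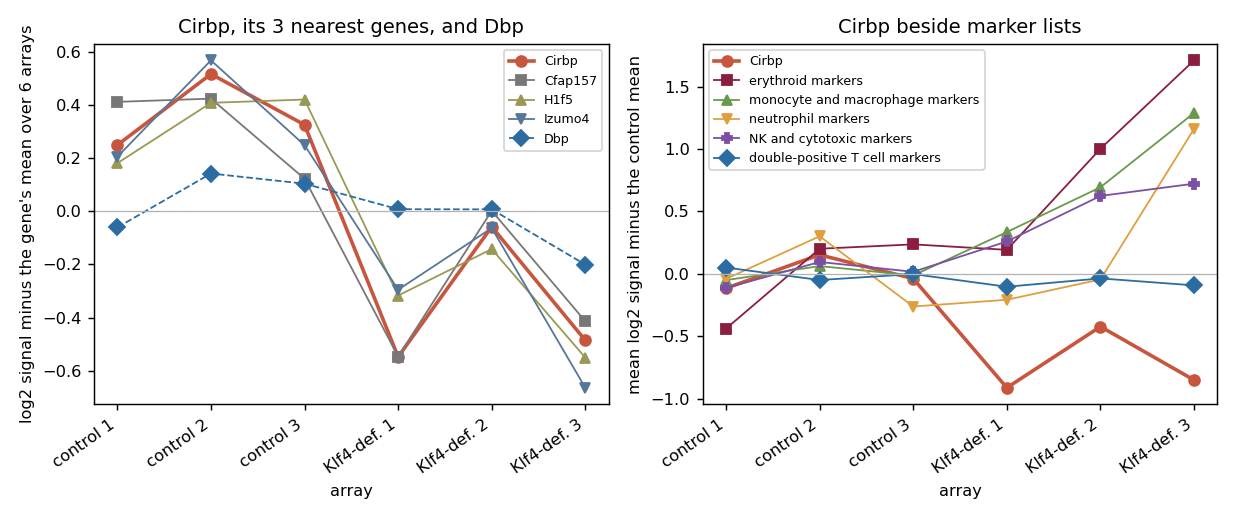
Left, log2 signal of Cirbp, its 3 nearest genes and Dbp (dashed) over the 6 arrays, each centred on its own mean; right, Cirbp and the mean of 5 marker lists relative to the control mean. Cirbp is lowest in arrays 1 and 3 labelled Klf4-deficient; in arrays 1, 2 and 3 of that group erythroid markers are at 0.19, 1.00 and 1.71, monocyte markers at 0.34, 0.69 and 1.29, and NK markers at 0.26, 0.62 and 0.72.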

How the data were processed

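RNA from 6 samples was measured on Illumina bead arrays, 3 per group. The authors deposited probe intensity, a linear scale, and the submitters' processing notes name BeadStudio without a version. How background was subtracted, how arrays were normalized and which genome build was used are not stated in the sources used here, and values under 0 make up 31.3% to 34.2% of an array. For this work negative values were raised to 0, and log2(signal + 16) was quantile normalized over 45281 probes. Of these, 34885 carried 1 gene symbol, 18 several and 10378 none, and a gene was read at its probe with the highest mean. Differences, SEs and p-values came from limma 3.58.1 in R 4.3.3 (lmFit, eBayes with a variance trend), adjusted by Benjamini-Hochberg over all probes with a threshold of 0.05. All 17 member probes are described, and, among genes above background on at least 1 array, up to 4 with the smallest p per clock, output, cold-shock and heat shock list; Csnk1d, Clock and Arntl are outside that rule and were named for their role, after their values were seen. The members and lists were chosen with earlier results of these data known. The number of arrays limits the precision. Alternatives were other offsets, normalizations, probe choices and filters, no variance trend, a replicate block, and leaving out each array.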

Additional observations from a re-analysis of the deposited data

How the results depend on the processing

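Over 16 alternatives the log2 difference of Cirbp ran from -0.88 (without array 2 labelled Klf4-deficient) to -0.63 (without array 1), and 0 of the 22 other clock genes passed in limma in any of them. The median of the 10 members ran from -0.02 to 0.04 over 15 alternatives. Of 157 differences of single members, 153 stayed within 1 pooled SD; Per1 was at 0.43 when its probes were averaged, which takes in its dim clone-based probe, and Bhlhe40 was at 1.97 with an offset of 1. The 2 other exceptions were of Cry1, under the limit on all 6 arrays. Members with lower, non-overlapping groups numbered 1 to 2 when an array was left out, and those higher 0 to 3, where 9.31% to 11.2% of all genes were lower and 8.09% to 11.2% higher. When the probes of a gene were averaged, 1 was higher (Per1).

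Over all probes, 2 passed the adjusted threshold in limma. The count was 0 with median centring, 1 with cyclic loess, 1 with probes above background in a group, and 0 when the probes of a gene were averaged. Leaving out control array 1, 2 or 3 gave 22, 29 and 45, and leaving out array 1, 2 or 3 labelled Klf4-deficient gave 49, 35 and 32; the cause was not tested. The filter to probes above background in a group was not summarised over the members, since a member can pass it through the group where it is high. The replicate number as a replicate block took the count from 2 to 0. Deviations of same-numbered arrays correlated at 0.15, -0.03 and -0.24, and not every array correlated best with its own number, so the numbers were not taken as pairs. With 3 arrays a group, and members such as Bhlhe40 at the background limit, small differences were not detectable.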
